A study of Mus musculus with 6 samples.

Results

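The genes described here encode the T cell receptor complex and its first signalling steps. They are Cd3d, Cd3e, Cd3g and Cd247, which are signalling chains of the receptor, the kinases Lck and Zap70, the adaptor Lat, and the surface receptors Cd2 and Cd28. These 9 genes were listed by symbol and found through the transcript accessions of the array's non-control probes. All 9 were measured, by 11 probes, among 22822 genes and unnamed transcripts tested in mouse skin. The series set skin with a conditional knockout of Sox4 (KO) against wild-type skin (WT), to ask what this transcription factor contributes to telogen skin, that is, skin whose hair follicles rest. RNA of 3 KO and 3 WT mice was read on 1-colour Agilent arrays. All mice were untreated males of a mixed C57Bl6/129Sv background. KO replicates 1, 2 and 3 were 17, 18 and 16 weeks old, and WT replicates 1, 2 and 3 were 20, 19 and 18 weeks old, so the groups also differed in age. The promoter that drives the recombinase, and with it the cells that lose Sox4, was not stated in the labels.

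T cells recognise antigen through a receptor whose variable chains have almost no signalling part of their own. The CD3 chains and the CD247 (zeta) chain carry the tyrosine motifs that Lck phosphorylates, Zap70 binds the phosphorylated motifs, and Zap70 in turn phosphorylates the scaffold Lat, from which the calcium and Ras branches start. CD28 and CD2 add costimulation and adhesion. In mice the epidermis is home to dendritic epidermal T cells, which carry a gamma delta receptor, and the dermis holds further T cells. Lck, Zap70, Cd247 and Cd2 are also expressed by natural killer cells, and Lat by mast cells and platelets. In whole skin, fewer cells of a type and less RNA per cell cannot be told apart.

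Cd3g, Cd3d and Cd3e lie next to each other on chromosome 9 and had the largest differences between KO and WT among the 9 genes, so the 250 bases before the start of each are printed here. They come from RefSeq in build GRCm38.p6, 5′ to 3′ along each gene, and were not measured by the array. Capitals mark the ETS core GGAAG, the RUNX motif TGTGGT and the GATA core AGATAA on either strand.
Cd3g, chr9:44980432-44980681, minus strand: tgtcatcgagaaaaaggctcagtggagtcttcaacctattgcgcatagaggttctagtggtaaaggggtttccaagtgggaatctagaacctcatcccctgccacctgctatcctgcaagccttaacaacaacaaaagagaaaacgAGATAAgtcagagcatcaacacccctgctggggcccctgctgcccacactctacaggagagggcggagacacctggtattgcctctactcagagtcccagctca
Cd3d, chr9:44981536-44981785, plus strand: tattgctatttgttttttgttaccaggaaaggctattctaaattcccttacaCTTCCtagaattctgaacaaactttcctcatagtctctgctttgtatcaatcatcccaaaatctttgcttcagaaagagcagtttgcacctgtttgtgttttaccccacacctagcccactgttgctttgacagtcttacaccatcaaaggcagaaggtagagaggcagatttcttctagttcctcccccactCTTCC
Cd3e, chr9:45009612-45009861, minus strand: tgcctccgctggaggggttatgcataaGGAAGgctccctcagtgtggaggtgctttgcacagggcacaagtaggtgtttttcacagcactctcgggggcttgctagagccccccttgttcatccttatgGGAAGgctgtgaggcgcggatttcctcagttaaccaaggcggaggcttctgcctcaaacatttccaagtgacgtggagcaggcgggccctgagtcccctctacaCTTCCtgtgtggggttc
Cd3g and Cd3d point away from each other, with starts 1355 bases apart, and the start of Cd3e lies 27825 bases from that of Cd3d. The window of Cd3g held no ETS core and 1 GATA core, that of Cd3d 2 ETS cores, and that of Cd3e 3 ETS cores. RefSeq windows were at hand for 7 of the 9 genes, not for Cd2 and Cd28. These 7 genes had 10 windows, of which 8 held an ETS core, against 64.1% of all 32851 promoter windows, and 2 (1 of Zap70 and 1 of Lck) held the RUNX motif, against 14.0%. The E-box CANNTG occurred in 9 of 10, against 66.2% of windows, and the GATA core in 1, against 9.99%. The SOX motif AACAAAG occurred in 1 window, of Lck, against 5.03%, and the shorter AACAAT in 1, of Zap70, against 9.42%. None of these motifs contains another, and a match describes letters only.

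The labels were checked first on Sox4. Its brighter probe read −2.95, −2.88 and −3.05 in KO replicates 1, 2 and 3, against 0.41, 0.65 and 0.75 in the WT replicates. These and all further levels are log2 of the background-subtracted signal relative to the array's 75th percentile, which was between 380.3 and 606.7 units. That is 11.8-fold lower in KO (limma adjusted p = 0.00135), and it goes with the labels. The arrays lay on 3 slides, scanned slide by slide: WT replicate 1 and KO replicate 3 on slide 1, WT replicates 2 and 3 and KO replicate 1 on slide 2, and KO replicate 2 alone on slide 3. All 10 epidermal keratinocyte markers were well above background on all 6 arrays. Skeletal muscle markers stood apart, with list scores of 1.77, 2.10 and 1.54 in KO and 1.21, −0.33 and −0.80 in WT, and KO replicates 1 and 2 were high in hair shaft genes (6.43 and 5.84, against −0.17 in KO replicate 3 and −0.12 to 0.27 in WT). The hair shaft list also holds inner root sheath genes. Whether the follicles rested in every mouse was not tested. A list score is the median over the list's genes of the log2 signal minus the gene's WT mean.

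All 9 genes of the receptor complex were lower in KO skin on average, by 1.47-fold for Cd2 to 2.50-fold for Cd3g, and on the scaled values no KO array reached the lowest WT array for any of them. The median log2 fold change was −0.88, a 1.84-fold lower level, against −0.09 over all genes tested. Of the 9, only Cd3g passed the adjusted threshold of 0.05 in limma, where 0.0219% of all genes did in either direction and 0.0175% did with a lower KO level. The other 8 had adjusted p from 0.154 to 0.383. Groups without overlap and lower in KO were found for 11.7% of all genes, and an unadjusted p under 0.05 with a lower KO level for 5.46%. The 8 genes well above background on all 6 arrays met both. Cd247 met both too, but it was kept through its WT arrays and was well above background on 1 of 3 KO arrays, so it is not counted with them. The exact two-sided permutation test gave p = 0.1 for each, the smallest that 3 against 3 arrays allow.

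**Figure D1:**
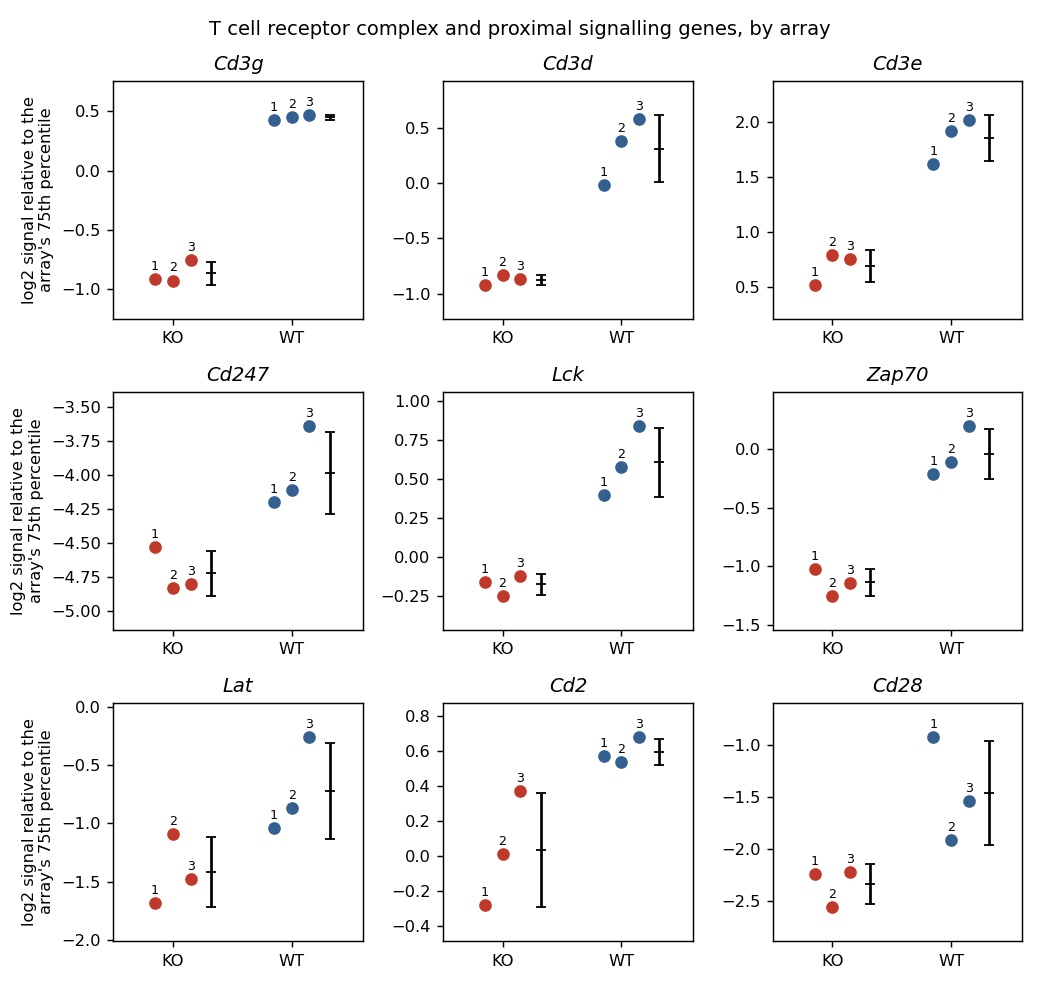
Level of each of the 9 genes on every array, as log2 signal relative to the array's 75th percentile, with KO on the left and WT on the right of each panel; small numbers are replicates and black bars the mean ± SD (n = 3). In all 9 panels the KO arrays lie below the WT arrays, with a gap of 1.19 for Cd3g and of 0.04 for Lat.

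The CD3 chains differed most. Cd3g, the gamma chain, read −0.92, −0.93 and −0.76 in KO replicates 1, 2 and 3, against 0.43, 0.45 and 0.47 in the WT replicates. The 3 WT arrays lay within 0.04 of each other and the highest KO array lay 1.19 below the lowest of them. Cd3g fell by 1.32 on the log2 scale (SE 0.11, n = 3 per group, limma adjusted p = 0.0475). The call was lost without KO replicate 1 (limma adjusted p = 0.211), KO replicate 2 (adjusted p = 0.153), WT replicate 2 (adjusted p = 0.297) or WT replicate 3 (adjusted p = 0.199), while the log2 fold change stayed between −1.38 and −1.29 over the 6 fits with 1 array left out. With slide as a block it was −1.30 (limma adjusted p = 0.323) and 0 of the 9 genes passed, where 0.00438% of all genes were called. In that fit 9 of 9 had an unadjusted p under 0.05, as did 1835 of all 22822 genes in either direction. The 9 include Cd247, which was kept through its WT arrays.

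Cd3d, the delta chain, read −0.92, −0.83 and −0.87 in KO and −0.02, 0.38 and 0.58 in WT. Its KO arrays were the most alike of all 9 genes (SD 0.05), and WT replicate 1 was the nearest to them. The log2 fold change was −1.19 (SE 0.17, limma adjusted p = 0.174). Cd3e, the epsilon chain that pairs with either of the other two, read 0.52, 0.79 and 0.75 in KO and 1.62, 1.92 and 2.02 in WT. Its log2 fold change was −1.16 (SE 0.15, limma adjusted p = 0.154), and again WT replicate 1 lay nearest to KO. Cd3g, Cd3e, Zap70 and Cd3d ranked 5, 25, 28 and 39 by p among the 22822 genes.

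Cd247, the zeta chain, was dim and was well above background on 1 of 3 KO arrays (replicate 1) and on all 3 WT arrays. It read −4.53, −4.83 and −4.80 in KO and −4.20, −4.11 and −3.64 in WT, a log2 fold change of −0.74 (SE 0.18, limma adjusted p = 0.274). Its unscaled signals came to 26.3, 17.9 and 17.7 units on the KO arrays, against 20.8, 28.3 and 35.1 units on the WT arrays, and before scaling KO replicate 1 lay above WT replicate 1. Before scaling, the groups also overlapped for Lck (KO replicate 1 at 544 units, against 502 units in WT replicate 1), Lat (KO replicate 2 at 240 units, against 185 units in WT replicate 1) and Cd2 (KO replicate 3 at 637 units, against 565 units in WT replicate 1). The groups of these 4 genes were thus separate on the scaled values only, and those of Cd3g, Cd3d, Cd3e, Zap70 and Cd28 with and without scaling. For Cd28 the unscaled groups nearly met, at 128.3 units in KO replicate 1 and 129.1 units in WT replicate 2. With normexp background correction and quantile normalization the log2 fold change of Cd247 was −0.25.

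The kinases Zap70 and Lck lay lower on every KO array than on any WT array, Zap70 by more. Zap70 read −1.02, −1.25 and −1.14 in KO and −0.21, −0.11 and 0.20 in WT, with a log2 fold change of −1.10 (SE 0.15, limma adjusted p = 0.166). A dimmer second probe of Zap70 read −2.14, −2.36 and −1.94 in KO and −1.47, −1.31 and −1.17 in WT, a difference of −0.83, so both probes separated the groups. Before scaling, the groups of this second probe nearly met, at 137.5 units in KO replicate 1 and 137.7 units in WT replicate 1. Lck, the kinase that acts first, read −0.16, −0.25 and −0.12 in KO and 0.40, 0.58 and 0.84 in WT. Its log2 fold change was −0.78 (SE 0.14, limma adjusted p = 0.273), with the KO arrays within 0.12 of each other and the WT arrays spread over 0.44.

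Lat and the costimulatory receptors had the smaller or less even differences. Lat read −1.68, −1.09 and −1.48 in KO and −1.04, −0.87 and −0.26 in WT, and KO replicate 2 and WT replicate 1 were only 0.04 apart. Lat differed by −0.69 (log2 fold change, SE 0.25, limma adjusted p = 0.383), and by −0.46 without WT replicate 3. Cd28, the main costimulatory receptor of T cells, read −2.24, −2.56 and −2.22 in KO and −0.93, −1.92 and −1.54 in WT. Its log2 fold change was −0.88 (SE 0.26, limma adjusted p = 0.313), and it was highest in WT replicate 1, the array in which 7 of the 9 genes had their lowest WT level. Without WT replicate 1 it was −0.61, and without WT replicate 2 −1.10.

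Cd2, an adhesion receptor of T and natural killer cells, was read by 2 probes. The brighter read −0.28, 0.01 and 0.37 in KO and 0.57, 0.54 and 0.68 in WT, with a log2 fold change of −0.56 (SE 0.18, limma adjusted p = 0.342). The other probe was spotted 10 times on each array and so shows the technical spread. Its spots had an SD of 0.10 to 0.17 within an array after 3 outlier spots were left out, 2 on WT replicate 1 and 1 on WT replicate 3. Its array means came to −2.81, −2.79 and −2.42 for KO, against −2.21, −2.22 and −2.05 for WT. KO replicate 3 lay above the other KO arrays with both probes, and the mean difference of the repeated probe was −0.51.

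**Figure D2:**
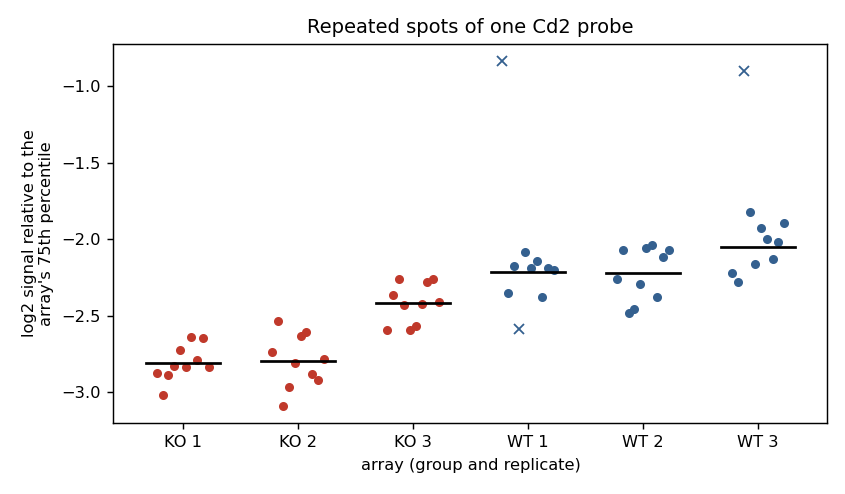
Log2 signal relative to the array's 75th percentile for the 10 spots of one Cd2 probe on each array, KO arrays on the left. Points are spots used, crosses are outlier spots left out, and lines are array means, which run from −2.81 in KO replicate 1 to −2.05 in WT replicate 3.

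The size of the difference varied among the 9 genes. Averaged over Cd3d, Cd3e and Cd3g, the KO replicates deviated from the WT mean by −1.31, −1.20 and −1.17, against −0.19, 0.04 and 0.15 for the WT replicates. For Lck and Zap70 they averaged −0.87, −1.03 and −0.91 in KO and −0.19, −0.05 and 0.24 in WT. Cd2 and Cd28 together deviated by −0.82, −0.84 and −0.49 in the KO replicates, against 0.25, −0.26 and 0.00 in the WT replicates. The mean difference of the CD3 chains was 0.29 log2 units larger than that of the kinases (KO minus WT −0.29, exact permutation p = 0.1, the smallest possible). It was 0.51 larger than that of Cd2 and Cd28 (KO minus WT −0.51, exact permutation p = 0.2). In the first comparison the groups lay only 0.08 apart, and in the second they overlapped. The CD3 chains were already known to differ most in these data, so neither p is independent support for the contrast. Among the WT arrays, replicate 3 had the highest level of 8 of the 9 genes.

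Ptprc, which encodes CD45, the phosphatase that all leukocytes carry and that activates Lck, differed less. It read −0.07, 0.01 and −0.20 in KO and 0.08, 0.09 and 0.18 in WT, a log2 fold change of −0.21 (SE 0.11, limma adjusted p = 0.505). Relative to Ptprc on the same array, the CD3 chains deviated by −1.13, −1.09 and −0.84 in KO and by −0.16, 0.07 and 0.09 in WT. That difference of −1.02 left the groups 0.69 apart (exact permutation p = 0.1, the smallest possible). The CD3 chains were already known to differ most in these data, so this p is not independent support either. For the mean of all 9 genes relative to Ptprc the difference was −0.73, and the groups lay 0.48 apart. The 9 were also chosen with earlier results known, and they include Cd247, kept through its WT arrays. All 10 genes of the list for all leukocytes lay lower in KO, between −0.41 and −0.15 (median −0.25), and 0 passed the adjusted or the unadjusted threshold in limma. Over all genes tested, 64.1% had a negative fold change. Small lower levels were not particular to leukocyte genes. Keratinocyte markers were lower in KO for 10 of 10 (median −0.20), fibroblast markers for 5 of 6 (median −0.17) and endothelial markers for 3 of 5 (median −0.10).

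The skeletal muscle score also differed between the groups. It was 1.21 in WT replicate 1, close to the KO arrays, and it came from 15 of 15 markers higher in KO with a median log2 fold change of 1.82. The summed level of the 15 genes ran from 11.49 to 11.86 in KO and from 9.37 to 11.3 in WT on the log2 scale. With this score as a covariate all 9 receptor genes still lay lower in KO (median −0.72), and 0 of 9 passed in limma (5 with an unadjusted p under 0.05; over all genes 0 were called and 662 had an unadjusted p under 0.05). Cd3g was −1.26 in that fit, Cd3e −0.85, Cd3d −0.72, Lck −0.43, Zap70 −0.79, Cd247 −0.36, Lat −0.25 and Cd28 −1.44. On slide 1, where the KO and the WT array had like muscle scores, Cd3g differed by −1.19, Cd3e by −0.87, Cd3d by −0.85, Zap70 by −0.93 and Lck by −0.52. On slide 2, where the scores differed more, the same genes differed by −1.38, −1.45, −1.41, −1.07 and −0.87. Lat differed by −0.44 on slide 1 and −1.11 on slide 2, and Cd2 by −0.20 and −0.88. Cd247 was much alike on both, at −0.61 and −0.65, and Cd28 ran the other way, at −1.28 on slide 1 and −0.51 on slide 2. All 9 were lower in KO within both slides. Both slides held only 1 KO array each. They also differed in the ages of the mice and in hair shaft score, at −0.17 for KO replicate 3 on slide 1 and 6.43 for KO replicate 1 on slide 2. These differences cannot be told apart from muscle here, and the part of muscle in the values was not tested.

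Single arrays decided how many of the 9 passed. Without WT replicate 1, 4 were called in limma, Cd3g, Cd3d and Cd3e with adjusted p = 0.0401 and Zap70 with adjusted p = 0.0445, where 1.33% of all genes were called. Without KO replicate 3, 1 was called, Cd3g, against 0.386% of all genes. Without each of the other 4 arrays in turn 0 of 9 passed in limma, with 7 to 9 at an unadjusted p under 0.05. Of all 22822 genes, 2 or 3 were called in these fits and 1656 to 2089 had an unadjusted p under 0.05 in either direction. Cd247, kept through its WT arrays, is counted among the 7 to 9. The median over the 9 genes stayed between −1.10 and −0.85 over these fits. With age as a covariate it was −1.07, and Cd3g alone of the 9 was called (log2 fold change −1.43, limma adjusted p = 0.0499), where 0.609% of all genes were called.

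The genes around the receptor complex were lower in KO less evenly. Of 88 further genes of T cell receptor signalling, 65 were measured, 52 with a negative and 13 with a positive fold change, and the median was −0.24. Over all genes tested, 64.1% had a negative fold change, and the counts of lower genes below are to be read against that share. In limma 0 of them passed over all genes, and 14 lower and 2 higher had an unadjusted p under 0.05, as did 5.46% of all genes lower and 6.26% higher. Groups did not overlap for 22 lower and 3 higher, where 11.7% of all genes were lower and 7.58% higher without overlap. Sos1, Sla2 and Lag3, among the 14, were kept through their WT arrays. They were well above background on 2, 2 and 1 of 3 KO arrays. Sos1 and Lag3 are also among the 22, so both counts include genes that only the WT arrays brought in. Of the 23 not measured, 7 constant chains of the receptor had no named probe, and 16 were not well above background on all arrays of either group.

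**Figure D3:**
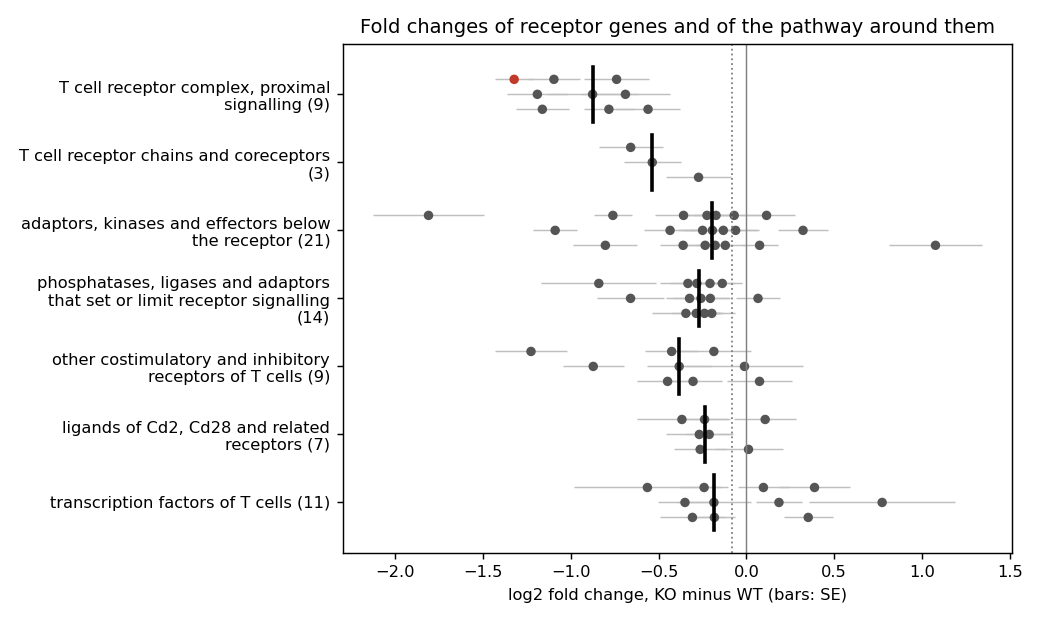
Log2 fold change (KO minus WT) with its SE for the 9 receptor genes and for the lists of genes around them, with the number of genes in brackets; genes among the 9 are shown in the first row only. Black bars are list medians, the dotted line is the median of all genes (−0.09), and the red point is Cd3g, the one gene shown that passed the adjusted threshold.

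Among coreceptors, Cd6 and Cd5, scavenger-type receptors that tune the signal, had log2 fold changes of −0.66 and −0.54, and the coreceptor Cd4 had −0.27 with overlapping groups (limma adjusted p = 0.295, 0.315 and 0.556). Cd4 read 2.34, 1.97 and 2.50 in KO and 2.31, 2.70 and 2.62 in WT. Macrophages and dendritic cells of mice can also express Cd4. Cd8a and Cd8b1 were well above background on at most 2 arrays of each group and were not tested.

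Below the receptor, 17 of 21 measured genes lay lower in KO (median −0.19). The adaptor Skap1 read −1.08, −1.20 and −1.12 in KO and −0.36, −0.45 and −0.31 in WT (log2 fold change −0.76, limma adjusted p = 0.174). Trat1, an adaptor that associates with the receptor complex, had a log2 fold change of −1.81 (SE 0.31, limma adjusted p = 0.263). Prkcq, protein kinase C theta, ran the other way, at 0.66, 1.02 and 0.99 in KO and 0.39, −0.53 and −0.41 in WT (log2 fold change 1.08, SE 0.26, limma adjusted p = 0.273). Prkcq is also abundant in skeletal muscle, and like the muscle score it was nearest to KO in WT replicate 1; the part of muscle in this value was not tested.

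Of 14 genes that set or limit the signal, 13 lay lower in KO (median −0.27). Ptpn22, a phosphatase that acts on Lck and Zap70, had −0.66 (SE 0.19) and the adaptor Sla2 −0.84 (SE 0.33). Sla2 was kept through its WT arrays, was well above background on 2 of 3 KO arrays, and had overlapping groups. Ptpn6, the phosphatase SHP-1, and the ubiquitin ligase Cblb had −0.32 and −0.24. Of 9 other costimulatory and inhibitory receptors, 8 were negative (median −0.38). Cd96 had −0.87 (SE 0.17). Lag3 had −1.23 (SE 0.21), but it was kept through its WT arrays and only 1 of 3 KO arrays was well above background, so the size of that difference is uncertain. Icos and Havcr2 had −0.43 and −0.45, without overlap. The adjusted p of these 8 named genes in limma ran from 0.250 to 0.445.

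The ligands of Cd2, Cd28 and related receptors were near the general share: 5 of 7 lay lower, groups were without overlap for 0 of 7, and 0 had an unadjusted p under 0.05 in limma, where 11.7% of all genes were lower and 7.58% higher without overlap. Cd48, which mouse Cd2 binds, had −0.26, Cd86 −0.21 and Cd80 0.01. Cd86 and Cd80 are the ligands of Cd28 on antigen-presenting cells. Pvr and Pdcd1lg2 had −0.24 and −0.37. Transcription factors of T cells, of which 11 were measured, were negative in 6 (median −0.18). Satb1 had a log2 fold change of 0.35 without overlap, Ets1 −0.35 and Lef1 0.77, and 0 of the 11 passed in limma, with 1, Satb1, at an unadjusted p under 0.05. These counts lie near the shares over all genes, of which 64.1% were negative and 5.46% lower and 6.26% higher at that p. Gata3, Lef1 and Satb1 are also expressed by keratinocytes or hair follicles.

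Markers of other leukocytes were set beside the receptor genes. Natural killer cell markers had the lowest median, −1.36 over 6 measured of 14, with scores of −1.38, −1.49 and −1.06 in KO and 0.06, −0.06 and 0.04 in WT. Of these 6, Klra8 and Gzma were kept through their WT arrays and were well above background on 2 of 3 KO arrays. The groups of Gzma also overlapped, so the size of this median is uncertain. Klrd1 read −2.25, −2.06 and −1.85 in KO and −0.71, −0.66 and −0.75 in WT. Prf1, perforin of cytotoxic lymphocytes, had −0.74, and Klrd1, Prf1 and Nkg7 are also expressed by cytotoxic T cells. The defining natural killer gene Ncr1 was well above background on 1 KO and 1 WT array, and Eomes on 1 KO array and no WT array. Klrb1c, another such gene, was well above background on no KO array and on at most 2 WT arrays. The summed level of the 6 measured natural killer markers ran from 1.94 to 2.54 in KO and from 2.80 to 3.09 in WT on the log2 scale. T cells and natural killer cells share these genes in part, and how much of either list comes from which cell cannot be told apart here.

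Among markers of tissue-resident and gamma delta T cells, 4 of 12 were measured. Xcl1, a chemokine made by such cells and by natural killer cells, read −2.93, −3.88 and −2.86 in KO and −1.57, −1.21 and −1.54 in WT (log2 fold change −1.78, SE 0.29, limma adjusted p = 0.230). Cd163l1 had 0.56, Sox13 −0.05 and Cd69 −0.01, with overlapping groups. Blk, Il17a and Il23r were not well above background on any array. The median of B and plasma cell markers was −0.51 (5 of 6 lower) and that of macrophage and dendritic cell markers −0.19 (10 of 11 lower). Mast cell markers had 0.23 (0 of 6 lower) and neutrophil markers 0.22 (1 of 4 lower). Of lymph node markers 3 were measured with a median of 0.005, and Glycam1, which marks lymph node vessels, was not well above background on any array. The summed levels of B cell markers ran from 4.02 to 4.47 in KO and from 4.42 to 4.79 in WT, and of macrophage and dendritic cell markers from 6.74 to 6.95 in KO and from 6.77 to 7.32 in WT.

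**Figure D4:**
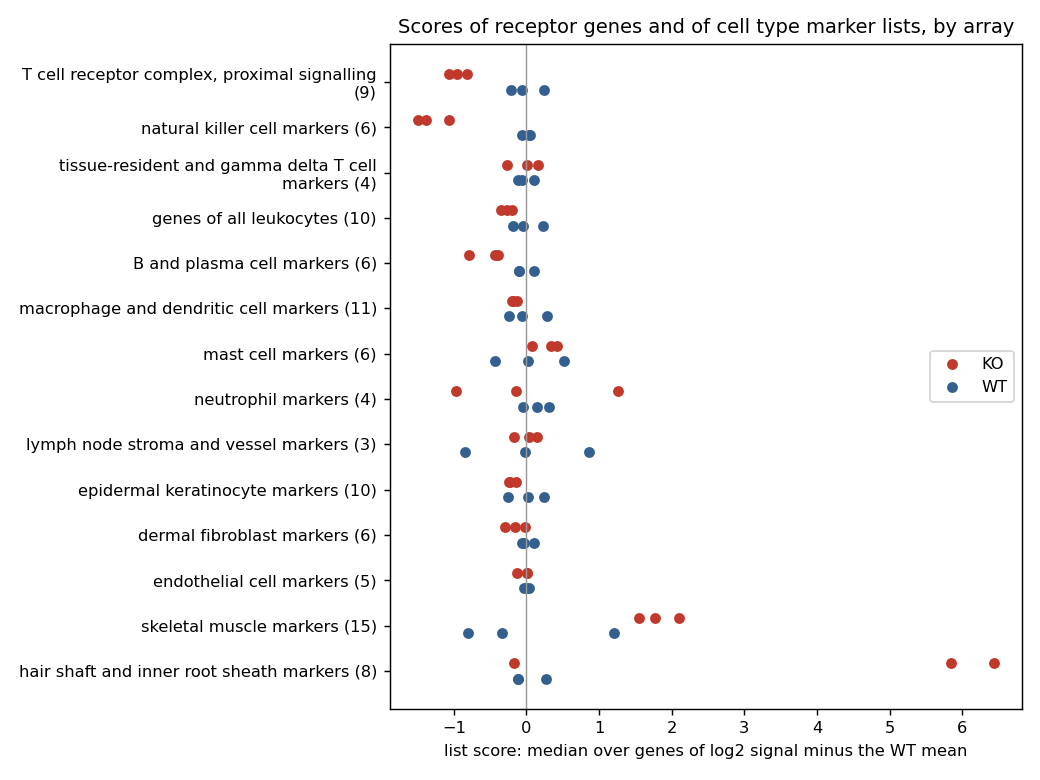
Score of each gene list on every array (median over measured genes of the log2 signal minus the gene's WT mean; number of genes in brackets), with KO above WT in each row. The receptor genes are at −1.06 to −0.82 in KO and −0.21 to 0.24 in WT, the leukocyte list differs less, and the skeletal muscle score of WT replicate 1 (1.21) lies near the KO arrays.

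The genes whose levels over the 6 arrays followed the mean of the 9 most closely were sought among the other named genes. Predicted genes and clone names were left out. Likeness was the root mean square difference, over the 6 arrays, between a gene's deviations from its own mean and the mean deviations of the 9. Those mean deviations came to −0.51, −0.48 and −0.41 on the KO arrays, against 0.36, 0.38 and 0.66 on the WT arrays. The 8 nearest were the semaphorin Sema4f (0.086), Bcl2a1d (0.107), Skap1 (0.126), Tes (0.126), Prf1 (0.135), Usp27x (0.136), Lingo4 (0.147) and Tlr12 (0.148). Among the 9 themselves Lck (0.097) and Zap70 (0.119) lay nearest to their mean and Cd28 (0.340) farthest. Bcl2a1d belongs to a family of near-identical copies, so its probe may read several of them. Sema4f read −3.06, −3.21 and −3.12 on the KO arrays, against −2.43, −2.36 and −2.16 on the WT arrays. Usp27x, Lingo4 and Tlr12 were dim, with KO means of −3.76, −4.21 and −4.09, where Cd247 had −4.72.

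The genes next to the CD3 cluster had smaller differences. Of the 4 nearest protein-coding genes on each side, 6 were measured. Ube4a, the neighbour of Cd3g, had a log2 fold change of −0.11, and Atp5l, next to it, 0.12. On the side of Cd3e, Mpzl2 had −0.23 and Mpzl3 −0.10, and all 4 had overlapping groups. Jaml, a leukocyte adhesion molecule, had −0.44 and the sodium channel subunit Scn2b −0.33, both without overlap (limma adjusted p = 0.419 and 0.414). Ttc36 and Kmt2a were not tested.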

How the data were processed

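Signal intensity values were deposited by the authors, 1 file per array, as output of Agilent Feature Extraction 11.5.1.1, background-subtracted and detrended but not normalized between arrays, per the file headers. Spot flags of the other kind, coded 0 or 1, were deposited in the same files. There were 62976 spots per array. A log2 value table was deposited too, whose median was 6.80 in each column. Its columns headed KO followed the WT arrays of the same replicate number and the reverse (correlation 0.998 or more), so it served only as an alternative. The submitters' processing notes name limma.

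Here, repeated spots were reduced to their mean log2 signal after outlier spots were dropped, and the 75th percentile of an array's non-control probes was subtracted. Accessions were named through RefSeq (GRCm38.p6), which named 27509 of 55681 probes; the array grid is of build mm9. Each gene was represented by its brightest probe, among those well above background on every array of KO, of WT or of both. The comparison used limma 3.58.1 (R 4.3.3), two-sided, with Benjamini-Hochberg adjustment over all 22822 genes; fold changes are KO minus WT. The fit was tested on simulated data. The normexp alternative used median spot signals, since the files hold no mean signals. Members and lists were chosen with earlier results of these data known. Genes around the receptor were named if called or among the 4 of their list with the smallest p, with others picked for their role after their values were seen; some genes that this rule names are not reported here. The number of arrays limits precision. Replicates were taken as different animals, since ages differ within a group.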

Additional observations from a re-analysis of the deposited data

How the results depend on the processing

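Over 15 alternatives all 9 receptor genes kept a negative fold change on the scanner values, and Cd3g stayed called in 6 of the 15. In limma, the count over all genes was 5, with 1 receptor gene called. The count over all genes was 8 with normexp and quantile normalization (median of the receptor genes −0.69), 15 with arrays centred on the median, 2 without a filter on dim probes, 1 with slide as a block and 139 with age as a covariate (receptor median −1.07, pathway median −0.35). Adjusted for the skeletal muscle score it was 0, with 662 at an unadjusted p under 0.05, and the pathway median was −0.14. Without both KO replicates 1 and 2 it was 0 (1020 at an unadjusted p under 0.05) and the pathway median −0.17. The replicate block gave 0 calls over all genes (2215 at an unadjusted p under 0.05) and 0 receptor genes, with the receptor median at −0.88; same-numbered arrays shared only a number (correlations of deviations −0.13, −0.04 and 0.08). The limma count of receptor genes was also 0 without the filter, with slide as a block and with the muscle score, with 9, 9 and 5 at an unadjusted p under 0.05. Over all genes, 2493 of 37000 met that p without the filter and 1835 of 22822 with slide as a block. Without both KO replicates 1 and 2 the receptor median was −0.82. With 1 array left out the counts ran from 2 to 303 over all genes and from 0 to 4 among receptor genes, the receptor median from −1.10 to −0.85 and the pathway median from −0.28 to −0.20. Taken as headed, the authors' value table turned the receptor median to 0.69, as its group headings stand against the scanner files. Other causes of these shifts were not tested. Signal over background limits Cd247, which was dim.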
